A study of Mus musculus with 4 samples.

Results

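The genes examined here encode 9 secreted proteins, *Csf1*, *Bdnf*, *Fgf3*, *Inhbb*, *Tgfb1*, *Ccl2*, *Il24*, *Reg1*, and *Reg3b*, out of 31053 genes counted in single cells of mouse lumbar dorsal root ganglia (DRGs), the ganglia that hold the cell bodies of sensory neurons. They were gathered as signals that injured neurons make, by symbol and with results of these same data known, so differences of the 9 genes between sham and injured DRGs, and between *Sprr1a*+ and *Sprr1a*- neurons, are described here without a test. In these counts *Bdnf* and *Ccl2* were lower in *Sprr1a*+ than in *Sprr1a*- neurons of both CCI libraries. They were still detected in *Sprr1a*+ neurons of the male and the female CCI library, *Bdnf* in 75.1% and 72.8% and *Ccl2* in 7.70% and 6.87%.

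All 4 libraries came from *Pirt*EGFPf mice on a C57BL/6 background, 7 to 8 weeks old, in which an EGFPf sequence replaces the open reading frame of *Pirt* on 1 allele and is driven by the endogenous *Pirt* promoter, so all sham controls carry the allele as well. Chronic constriction injury (CCI), loose ligation of the sciatic nerve, or sham surgery was done on both sides, and L4-5 DRGs were taken on day 7. Each library pooled 20 DRGs of 5 mice of 1 sex, GFP+ cells were sorted, and the libraries are called Male-Sham and Female-Sham, Male-CCI and Female-CCI. The sham and CCI groups therefore have n = 2 pools each, a male and a female one. Littermates shared a surgery, so litter and surgery cannot be told apart, and the onset of expression before day 7 was not measured.

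After injury of a peripheral nerve, sensory neurons switch on genes for secreted proteins that act on neighbouring cells or, through their central branches, on cells of the spinal cord. *Csf1* encodes the ligand of the CSF1 receptor of macrophages and microglia, *Bdnf* a neurotrophin that signals through TrkB, *Fgf3* a fibroblast growth factor, *Inhbb* the beta B subunit of activins and inhibins, and *Tgfb1* transforming growth factor beta 1. *Ccl2* encodes a chemokine that draws monocytes through CCR2, *Il24* a cytokine of the interleukin-10 family, and *Reg1* and *Reg3b* small secreted lectin-like proteins of the Reg family. *Sprr1a* and *Atf3* are widely used marks of a sensory neuron whose axon was damaged.

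The deposited matrices held 23691 cells with 195684124 to 237069156 unique molecular identifiers (UMIs) per library, and 15715 cells were kept. The neurons among them numbered 3281 and 5398 in the sham libraries (male, then female) and 2817 and 3638 in the CCI libraries, with medians of 45172, 32490, 56457, and 43516.5 UMIs per neuron. Libraries shared 215 to 513 cell barcodes per pair as deposited and 0 to 6 among the cells kept. Levels are CPM, the UMIs of a gene summed over cells and divided by all UMIs of the same cells, times 1e+06. Since the kit counts 3′ ends, this scale is not divided by gene length. In sums over all neurons, fewer cells that make a gene and less RNA per cell cannot be told apart. *Atf3* was at 131 and 161 CPM in sham and 723 and 729 in CCI neurons (log2 change 2.37, SE 0.11, edgeR adjusted p = 2.59e-05), and *Sprr1a* was at 45.4 and 102 in sham and 1926 and 1445 in CCI neurons (4.57, SE 0.63, edgeR adjusted p = 0.0204). Following the study, a neuron was *Sprr1a*+ when its log-normalized *Sprr1a* value was above 1. By this limit 42 (1.28%), 144 (2.67%), 1467 (52.1%), and 1790 (49.2%) neurons were *Sprr1a*+ in the order sham male and female, then CCI male and female, which is kept in the rest of the text.

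The genes lie on 6 chromosomes of the mm10 (GRCm38) build. *Csf1* (ENSMUSG00000014599) is on chromosome 3 (107741048-107760469, minus strand), *Bdnf* (ENSMUSG00000048482) on chromosome 2 (109674700-109727007, plus strand), and *Ccl2* (ENSMUSG00000035385) on chromosome 11 (82035571-82037453, plus strand). *Fgf3* (ENSMUSG00000031074; 144838083-144844436) and *Tgfb1* (ENSMUSG00000002603; 25687002-25705077) are both on the plus strand of chromosome 7. *Inhbb* (ENSMUSG00000037035; 119415465-119422248) and *Il24* (ENSMUSG00000026420; 130882074-130887454) are on the minus strand of chromosome 1. *Reg1* (ENSMUSG00000059654; 78422711-78428667) and *Reg3b* (ENSMUSG00000071356; 78370657-78373466) lie 49245 bases apart on the plus strand of chromosome 6. Since the Reg genes and the Ccl genes are families of similar genes, their counts may include reads of a relative.

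*Csf1*, *Fgf3*, *Inhbb*, and *Tgfb1* were all high in *Sprr1a*+ neurons of many classes, whereas *Reg1* was counted almost only in 1 cluster of neurons. For this reason the sequences before a RefSeq start of these 5 genes are shown. They were taken from RefSeq promoter windows on GRCm38.p6, read 5′ to 3′ on the strand of the gene, and hold the bases within 150 bases before the RefSeq start that lie in no annotated exon. Capitals mark a match to 1 of 4 motifs searched on both strands. The stretches are at chr3:107760470-107760619 (*Csf1*, minus strand), chr7:144838462-144838594 (*Fgf3*, plus), chr1:119422249-119422398 (*Inhbb*, minus), chr7:25686852-25687001 (*Tgfb1*, plus), and chr6:78425833-78425929 (*Reg1*, plus). Those of *Fgf3* and *Reg1* lie inside the gene spans given above, not before them. The *Reg1* stretch ends at -54, since exon bases are left out.
Csf1: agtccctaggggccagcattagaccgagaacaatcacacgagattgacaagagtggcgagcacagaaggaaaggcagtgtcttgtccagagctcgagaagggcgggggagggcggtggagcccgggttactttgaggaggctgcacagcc
Fgf3: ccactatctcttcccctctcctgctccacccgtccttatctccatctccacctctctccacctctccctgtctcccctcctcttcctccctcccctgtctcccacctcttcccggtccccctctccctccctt
Inhbb: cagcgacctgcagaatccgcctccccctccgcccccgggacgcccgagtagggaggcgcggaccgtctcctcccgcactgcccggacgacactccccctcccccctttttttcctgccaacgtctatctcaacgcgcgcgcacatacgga
Tgfb1: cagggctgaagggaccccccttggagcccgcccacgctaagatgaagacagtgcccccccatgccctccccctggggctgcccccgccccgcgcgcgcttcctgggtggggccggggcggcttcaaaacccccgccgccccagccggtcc
Reg1: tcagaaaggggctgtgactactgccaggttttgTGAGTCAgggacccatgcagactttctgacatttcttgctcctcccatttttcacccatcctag

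The motifs were TGANTCA (the AP-1 motif), TGACGTCA (the cAMP response element), TTCCNGGAA (a STAT motif), and TATAAA (the TATA box). Over the 32851 windows of 300 bases in the RefSeq table, 250 before and 50 after a start, they were present in 7.81%, 1.79%, 1.15%, and 13.6%. None of the 4 was in the whole window of *Csf1*, *Fgf3*, *Inhbb*, or *Tgfb1*. The *Reg1* window held TGAGTCA at -117 (position of the first base before the start) and TATAAA at -30, outside the stretch shown. It also held TTTATA, the TATA motif on the other strand, at position 36 after the start. The *Reg3b* window held TATAAA at -29. The window of *Sprr1a*, the injury mark, held TGAGTCA at -146 and -116 and TATAAA at -43. The windows of *Csf1*, *Fgf3*, *Inhbb*, and *Tgfb1* had 58.7%, 59.3%, 64.3%, and 77% G and C, above the median of 52.7% over all windows, and those of *Reg1* and *Reg3b* had 42.7% and 43.7%. These are matches of letters in a window and no measurement of binding. The table had a window for 7 of the 9 genes, and *Bdnf*, with several start sites, held TGAATCA at -152 in 1 of its 7 windows.

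*Csf1*, *Fgf3*, *Inhbb*, and *Tgfb1* were higher in CCI than in sham neurons in both sexes, *Ccl2* was lower, and *Bdnf* did not separate the groups. *Csf1* was at 8.74, 10.8, 90.5, and 91.4 CPM, 9.75 ± 1.43 in sham and 90.9 ± 0.636 in CCI (SD, n = 2). Its log2 change fitted with edgeR was 3.27 (SE 0.10). Both CCI pools lay far above both sham pools and close to each other. *Fgf3* was at 1.41, 2.35, 53.1, and 55.4 CPM (log2 change 4.89, SE 0.25). *Inhbb* was at 1.07, 1.21, 42.5, and 46.1 CPM (5.33, SE 0.09). Both were near the bottom of the range in sham and moved by larger fold changes than *Csf1*. *Tgfb1* started higher, at 22.4 and 32.6 in sham, and reached 113 and 112 CPM in CCI (2.09, SE 0.21).

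*Ccl2* was at 18.9, 19.3, 7.78, and 10.2 CPM, lower in both CCI pools (log2 change -1.04, SE 0.12). *Bdnf* was at 120, 129, 114, and 147 CPM. Its groups overlapped, since Male-CCI was the lowest pool and Female-CCI the highest, and the fitted log2 change of 0.13 (SE 0.12) turned to -0.07 without Female-CCI. *Il24* had 0 UMIs in both sham pools and 148 and 73 UMIs in CCI neurons, and *Reg1* had 0, 0, 144, and 64 UMIs. Against 3 UMIs over both sham pools these correspond to at least 80.3-fold and 75.6-fold higher levels. *Reg3b* had 25, 31, 842, and 150 UMIs, but 560 of the 842 UMIs of Male-CCI (66.5%) were in 1 neuron. Without that cell the level of *Reg3b* in Male-CCI fell from 5.18 to 1.73 CPM. In Female-CCI 59 of the 150 UMIs (39.3%) were in 1 neuron, without which the level fell from 0.938 to 0.569 CPM. Both trimmed levels were still above 0.154 and 0.164 in sham. The log2 ratio of the group means was 4.27 with the Male-CCI cell and 3.07 without it, with the Female-CCI cell kept in both.

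**Figure D1:**
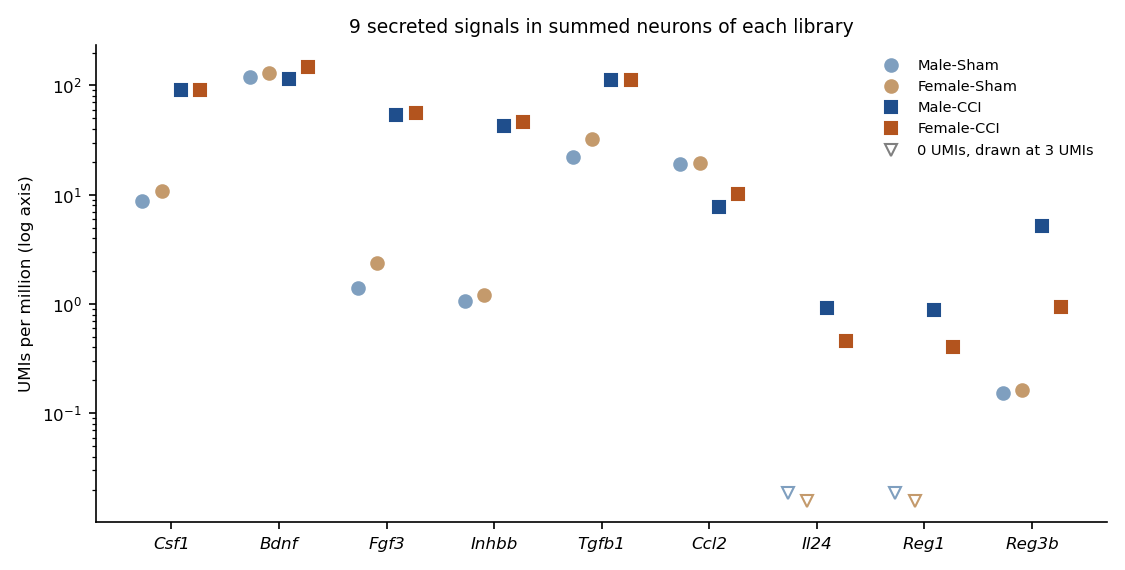
Level of each of the 9 genes in all neurons of the 4 libraries, in CPM on a log axis; each point is 1 library, and an open triangle stands for 0 UMIs and is drawn at the level of 3 UMIs. *Csf1*, *Fgf3*, *Inhbb*, and *Tgfb1* sit higher in both CCI libraries, *Ccl2* sits lower, and the *Bdnf* points of both surgeries overlap between 114 and 147.

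In all, 7 of the 9 genes were higher in both CCI pools than in both sham pools and 1 was lower. Over the 17233 genes tested, 39.4% were higher in both CCI pools and 40.4% lower, and edgeR called 15.2% higher and 12.7% lower. Because the genes were chosen with this contrast known, nothing is read from that count. In the neuron sums, the summed level of 8 immune markers was 10.6, 5.54, 6.09, and 8.51 CPM, with *Cd3e* at 0 in Female-Sham and Male-CCI, and that of 6 satellite glial markers was 1321, 1640, 877, and 1079. The 4 Schwann cell markers summed to 405, 427, 439, and 464 and the 5 fibroblast markers to 4.89, 5.64, 7.10, and 7.62. The 4 endothelial markers summed to 0.425, 0.464, 2.35, and 3.28 CPM, and the part of these markers in the results was not tested.

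Within the CCI libraries, the 4 most abundant of the genes that were higher after CCI came mostly from *Sprr1a*+ neurons. *Csf1* was at 154 CPM in *Sprr1a*+ against 15.4 in *Sprr1a*- neurons of Male-CCI, and at 164 against 17.6 in Female-CCI. *Fgf3* was at 96.0 against 2.52 in Male-CCI and 106 against 4.10 in Female-CCI, a ratio of 38.1 and 25.8. *Inhbb* was at 76.8 against 1.94 in Male-CCI and 88.0 against 3.53 in Female-CCI, a ratio of 39.6 and 24.9. These are far larger ratios than those of *Csf1* (10.0 and 9.30). *Tgfb1*, which other neurons also expressed, was at 184 against 29.4 and 184 against 39.3 CPM. *Sprr1a*+ neurons held 54.1% and 50.4% of all neuronal UMIs in Male-CCI and Female-CCI. They held 92.2% and 90.4% of the *Csf1*, 97.8% and 96.3% of the *Fgf3*, 97.9% and 96.2% of the *Inhbb*, and 88.1% and 82.6% of the *Tgfb1* UMIs.

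*Bdnf* and *Ccl2* had the opposite distribution. *Bdnf* was at 53.3 CPM in *Sprr1a*+ against 186 in *Sprr1a*- neurons of Male-CCI, and at 58.9 against 236 in Female-CCI. *Ccl2* was at 2.88 against 13.6 in Male-CCI and 3.16 against 17.3 in Female-CCI. Only 25.3% and 20.2% of the *Bdnf* UMIs and 20.1% and 15.7% of the *Ccl2* UMIs came from *Sprr1a*+ neurons. Counted over the set, 7 of the 9 genes were higher in *Sprr1a*+ than in *Sprr1a*- neurons of both CCI libraries, and over all tested genes 33.9% were higher and 57% lower.

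**Figure D2:**
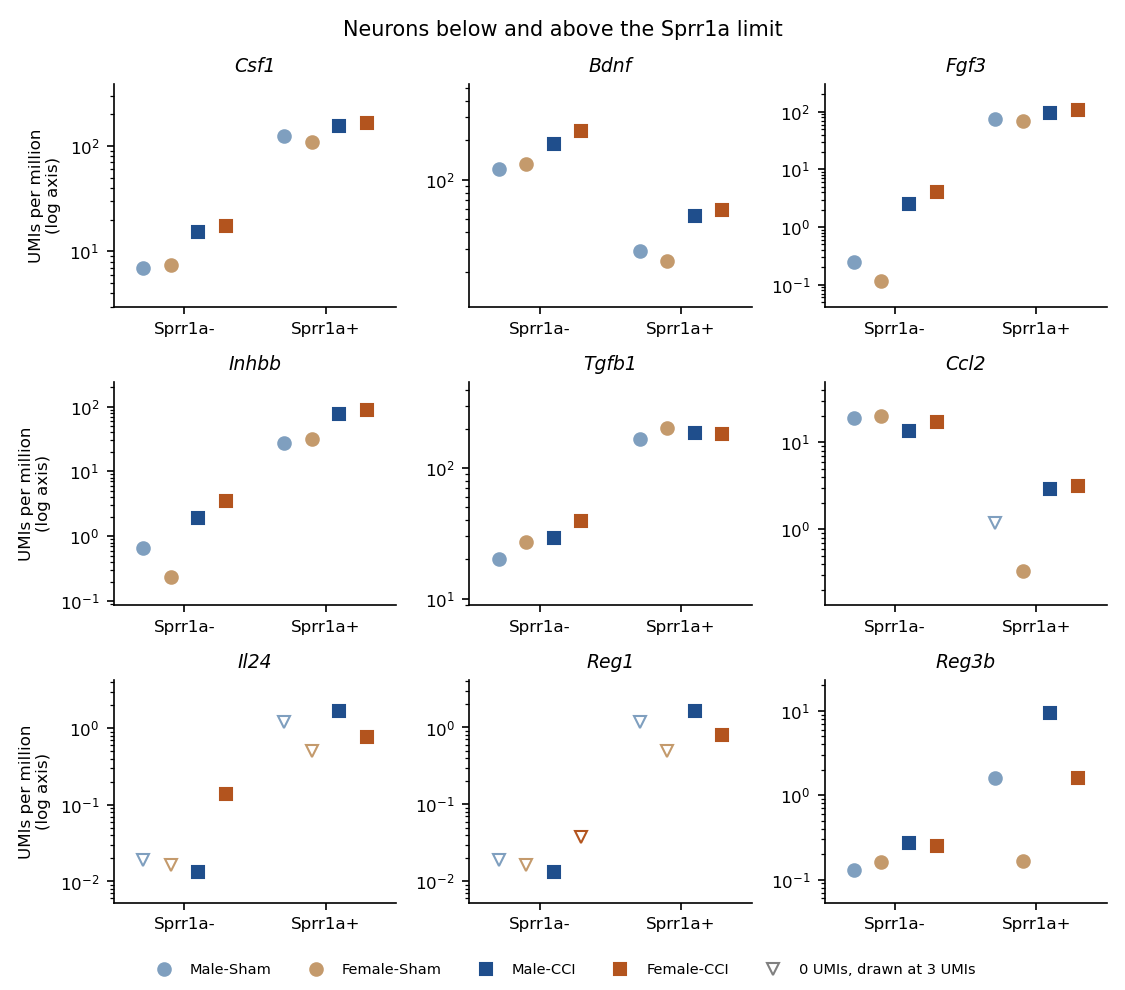
Level of each gene in *Sprr1a*+ and *Sprr1a*- neurons of the 4 libraries, in CPM on a log axis; each point is 1 library, and an open triangle stands for 0 UMIs, drawn at 3 UMIs. For *Csf1*, *Fgf3*, *Inhbb*, and *Tgfb1* the *Sprr1a*+ points lie above the *Sprr1a*- points in sham as well as CCI libraries, and for *Bdnf* and *Ccl2* they lie below.

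The sham libraries also held a few *Sprr1a*+ neurons, in which *Csf1*, *Fgf3*, *Inhbb*, and *Tgfb1* were far above their levels in other sham neurons. In the 42 and 144 such cells of Male-Sham and Female-Sham, *Csf1* was at 124 and 110 CPM, *Fgf3* at 75.0 and 70.5, and *Tgfb1* at 168 and 202. All but *Tgfb1* were lower in these sham cells than in *Sprr1a*+ neurons of either CCI library, with *Inhbb* at 27.4 and 31.1 CPM. *Bdnf* was at 28.6 and 24.1 and *Ccl2* at 0 and 0.332, below the values after CCI as well, and *Il24* and *Reg1* had no UMI. In *Sprr1a*- sham neurons *Csf1* was at 6.92 and 7.51, *Fgf3* at 0.250 and 0.114, *Inhbb* at 0.651 and 0.234, and *Bdnf* at 121 and 132 CPM.

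Levels changed in a step with the *Sprr1a* value of the cell. In Male-CCI, *Csf1* was at 13.2 CPM in neurons with no *Sprr1a* UMI, 16.1 in those with a value up to 1, 111 between 1 and 2, and 156 above 2. *Fgf3* was at 0.835, 3.10, 49.05, and 98.2 over the same bins in Male-CCI and at 2.42, 4.81, 59.3, and 110 in Female-CCI, and *Inhbb* at 1.04, 2.25, 40.9, and 78.5 in Male-CCI and 1.53, 4.38, 47.7, and 91.3 in Female-CCI. *Tgfb1* was flat below the limit, at 29.5 and 29.3 in Male-CCI, and reached 137 and 186 above it. *Bdnf* fell over the same bins from 187 and 185 to 95.3 and 51.4 CPM in Male-CCI, and from 254 and 229 to 74.1 and 57.7 in Female-CCI. The bin between 1 and 2 was thin, with 71 and 139 neurons.

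Most *Sprr1a*+ neurons of the CCI libraries had a UMI of each of the 4 genes. *Csf1* was detected in 96.7% and 94.8% of them, *Fgf3* in 88.6% and 84.9%, *Tgfb1* in 85.0% and 83.0%, and *Inhbb* in 77.6% and 75.1%, at median depths of 60287 and 45672 UMIs. In satellite glia-like cells of the same libraries, whose median depth was 5160 and 4411 UMIs, the shares were 14.4% and 20.4% for *Csf1*, 0.847% and 0.926% for *Fgf3*, 7.63% and 11.1% for *Tgfb1*, and 0.847% and 0 (95% exact upper bound 3.36%) for *Inhbb*. With each neuron thinned to 10000 UMIs, which left out 117 and 228 shallower neurons, the shares in *Sprr1a*+ neurons were 73.1% and 76.8% (*Csf1*), 68.7% and 67.3% (*Tgfb1*), 54.5% and 56.5% (*Fgf3*), and 44.6% and 46.5% (*Inhbb*). At the same depth the *Sprr1a*- neurons had *Csf1* in 13.2% and 13.1%, *Tgfb1* in 18.5% and 22.1%, *Fgf3* in 1.62% and 3.24%, and *Inhbb* in 1.31% and 2.08%. *Bdnf* was found in 35.4% and 37.0% of thinned *Sprr1a*+ neurons and in 59.8% and 64.4% of *Sprr1a*- neurons.

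Of the 1403 and 1680 thinned *Sprr1a*+ neurons of Male-CCI and Female-CCI, 15.3% and 16.1% had a UMI of all 4, 34.0% and 35.0% of 3, and 3.64% and 2.62% of none. For each pair of the 4, the share of neurons with both was 0.99 to 1.10 times the product of the separate shares, the highest for *Fgf3* with *Inhbb* (1.10 in both libraries). Among thinned *Sprr1a*- neurons, 71.7% and 67.5% had none of the 4.

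Cells were grouped into classes by clustering without the 9 genes, and classes are called "-like" because their names were rebuilt from the study's markers. They were NP1- to NP3-like (non-peptidergic), PEP1-, PEP2-, PEP3/4-, and PEP5-like (peptidergic), NF1- and NF2-like (neurofilament-rich), and cLTMR-like (C-fibre low-threshold mechanoreceptor) neurons. CCI-ind-like neurons carry the markers of clusters that the study named for their appearance after CCI. These neurons made up 1.31%, 2.46%, 40.8%, and 40.7% of neurons. A further cluster of 303 neurons, 293 of them from CCI libraries, was led by *Gal* and left unnamed.

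By class, *Csf1* was at 190 and 197 CPM in the *Gal*-led cluster of Male-CCI and Female-CCI and at 163 and 169 in CCI-ind-like neurons, a class of 4 clusters. Means of the CCI libraries were 91.3 in NP1-like, 72.7 in NF2-like, and 42.3 in NF1-like neurons. CCI-ind-like neurons held 74.0% and 76.5% of the *Csf1* UMIs of neurons in Male-CCI and Female-CCI with 41.1% and 41.4% of all neuronal UMIs, and the *Gal*-led cluster held 9.02% and 7.72%. *Inhbb* was at 89.9 and 100.3 CPM in the *Gal*-led cluster and 81.4 and 91.3 in CCI-ind-like neurons, which overlapped. It was at 58.3 in NP1-like neurons, 19.2 in NF1-like, and 12.6 in NF2-like. With injury-changed genes left out of the clustering, or at a resolution of 0.4, the *Gal*-led cluster was not separate, and CCI-ind-like neurons were the highest class for both genes.

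*Fgf3* was highest in CCI-ind-like (105 and 111 CPM) and NP1-like neurons (95.6 and 98.4), with 60.4 in the *Gal*-led cluster, 25.8 in NF2-like, and 12.1 in NF1-like neurons. *Tgfb1* was at like levels in CCI-ind-like neurons (193 and 189), those of the NP1-like class (180 and 197), and those of the NF2-like class (188 and 181), which did not differ beyond their spread. Unlike *Csf1* and *Inhbb*, it was low in the *Gal*-led cluster, at 40.9 and 41.5. In sham DRGs *Tgfb1* was highest in the few CCI-ind-like neurons, at a mean of 181, followed by 96.0 in NF2-like and 80.6 in PEP3/4-like neurons.

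*Bdnf* was highest in PEP3/4-like (365 and 461 CPM after CCI, mean 329 in sham) and PEP1-like neurons (mean 323 after CCI, 157 in sham), followed by PEP2-like neurons (221 after CCI). CCI-ind-like neurons had 55.0. *Ccl2* was highest in the same peptidergic neurons, with means of 67.5 in sham and 49.2 after CCI in PEP3/4-like, 33.7 and 21.1 in PEP2-like, and 22.1 and 13.9 in PEP1-like neurons. Few cells of these classes were *Sprr1a*+: 0.306% and 0.811% of PEP3/4-like and 0 and 2.61% of PEP1-like neurons of the male and the female CCI library, against 76.0% and 75.2% of NP1-like, 53.3% and 46.0% of NF2-like, and 45.3% and 33.7% of NF1-like neurons. PEP3/4-like neurons made up 24.2%, 25.8%, 11.6%, and 13.6% of neurons in the 4 libraries. cLTMR-like neurons had the lowest levels of *Csf1* (0.585 in sham and 2.28 after CCI) and *Bdnf* (3.08 and 5.01).

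**Figure D3:**
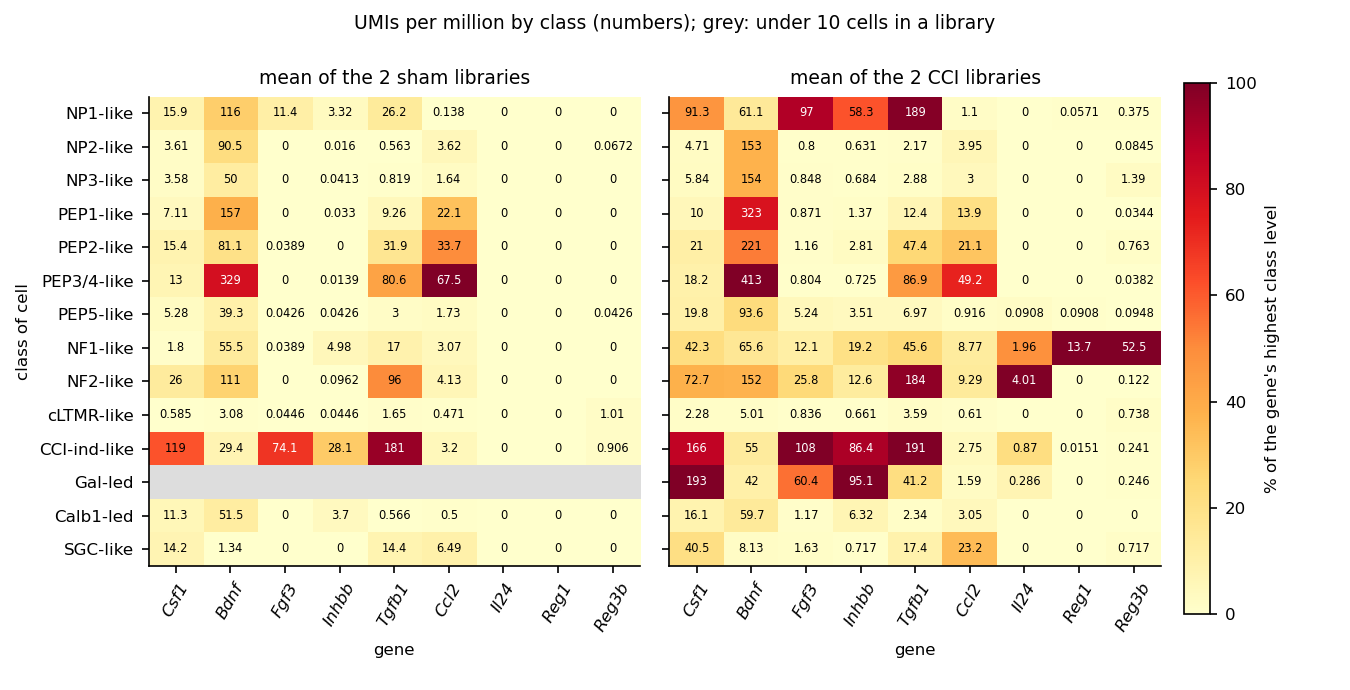
Heatmap of the 9 genes over cell classes for sham and CCI libraries; the number in a cell is the mean of 2 libraries in CPM, the color is the percent of the highest class of that gene, and grey marks classes with under 10 cells in a library. *Csf1*, *Fgf3*, *Inhbb*, and *Tgfb1* are highest in CCI-ind-like, *Gal*-led, NP1-like, or NF2-like neurons, and *Bdnf* and *Ccl2* in peptidergic neurons; PEP1-like and PEP3/4-like each hold a cluster that carries satellite glial markers, and no comparison of surgeries is drawn from this map.

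CCI-ind-like neurons fell into 4 clusters that differed in these genes. In the *Ly6a*-led cluster *Inhbb* was at 137 and 148 CPM in Male-CCI and Female-CCI, against 58.6 to 92.8 in the other 3 and 89.9 and 100.3 in the *Gal*-led cluster, and *Tgfb1* was at 274 and 277 against 160 to 231. *Csf1* was at 185 and 208 in the *Ly6a*-led, 177 and 176 in the *Anxa1*-led, 145 and 154 in the *Npy*-led, and 131 and 125 in the *Crh*-led cluster. *Fgf3* was highest in the *Anxa1*-led cluster, at 117 and 127. *Bdnf* was at 96.1 and 94.6 in the *Ly6a*-led and 90.8 and 84.3 in the *Npy*-led cluster, but at 17.5 and 22.3 in the *Crh*-led cluster.

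When 1927 injury-changed genes were left out of the clustering, many *Sprr1a*+ neurons joined a neuron class that is also found in sham DRGs, while 603 and 748 of Male-CCI and Female-CCI were still CCI-ind-like. *Csf1* then ranged from 87.4 to 203 CPM over the *Sprr1a*+ neurons of the NP1-, NP2-, NP3-, PEP1-, PEP3/4-, PEP5-, cLTMR-, NF1-, and NF2-like classes of both CCI libraries. The other genes were less even. *Fgf3* was at 117 and 122 in NP1-like *Sprr1a*+ neurons but at 32.7 and 36.0 in NF1-like ones and 49.7 and 51.9 in NF2-like ones. *Inhbb* was at 26.9 and 50.8 in *Sprr1a*+ neurons of the NF1-like and 20.7 and 28.4 of the NF2-like class and between 65.2 and 139 in the other classes compared. *Tgfb1* was at 36.6 and 38.1 in PEP5-like *Sprr1a*+ neurons against 86.3 to 286 elsewhere. Among *Sprr1a*+ neurons, *Bdnf* was at 121 and 143 in NF2-like and 109 and 115 in PEP1-like cells and at 17.5 and 26.1 in cLTMR-like cells.

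In the clustering with the injury-changed genes, *Sprr1a*+ and *Sprr1a*- neurons of 1 class could be set side by side in the NP1-, PEP5-, NF1-, NF2-, and CCI-ind-like classes. In NP1- and NF1-like neurons the states lay in different clusters in part: of the *Sprr1a*- cells, 27 and 23 were in the *Sst*-led and 4 and 12 in the *Wfdc3*-led NP1-like cluster, which held 100 and 114 cells in all, and 28 and 21 were in the *Pvalb*-led NF1-like cluster, against 36 and 34 in the *Ntng1*-led one. *Csf1* was higher in *Sprr1a*+ neurons of each, with 100.5 against 9.40 CPM in PEP5-like neurons of Male-CCI and 133 against 13.3 of Female-CCI, 117 against 20.9 and 98.7 against 39.9 in NP1-like, and 82.3 against 29.2 and 137 against 44.3 in NF2-like neurons. In NF1-like neurons it was at 100.3 against 4.46 and 107 against 4.88. The gap was smallest in CCI-ind-like neurons, where the 36 and 69 *Sprr1a*- cells of Male-CCI and Female-CCI had *Csf1* at 140 and 127 against 164 and 171 in *Sprr1a*+ cells, and *Inhbb* at 19.9 and 44.8 against 83.5 and 93.5. *Tgfb1* was at 219 against 28.8 and 236 against 68.4 in NP1-like and at 253 against 98.6 and 278 against 103 in NF2-like neurons, but at 10.6 against 7.56 and 8.43 against 5.96 in PEP5-like neurons. *Tgfb1* was thus low in PEP5-like neurons of either status. *Fgf3* was at 117 against 11.3 and 121 against 22.8 in NP1-like and at 43.1 against 1.17 and 52.2 against 5.08 in NF2-like neurons. *Bdnf* was lower in *Sprr1a*+ cells of NP1-like (37.4 against 132 and 43.7 against 140), NF2-like (125 against 175 and 139 against 173), and PEP5-like neurons (39.7 against 89.7 and 52.7 against 106), and overlapped in NF1-like neurons (58.5 against 52.8 and 73.5 against 76.8). *Ccl2* was higher in *Sprr1a*+ cells of NF1-like (9.64 against 3.91 and 16.6 against 8.53) and NF2-like neurons (12.8 against 8.17 and 9.24 against 6.47), the opposite of its direction over all neurons.

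The next comparison was between *Sprr1a*- neurons of CCI and sham DRGs, within 10 classes, with 3 clusters set aside because their leading genes were those of another class or gave no class. *Csf1* was higher in both CCI libraries in 10 of 10 classes. In NP1-like *Sprr1a*- neurons it was at 0.519, 7.51, 20.9, and 39.9 CPM, in NF1-like at 1.94, 1.65, 4.46, and 4.88, and in cLTMR-like at 0.408, 0.763, 1.71, and 2.72. The NP1-like *Sprr1a*- neurons were mostly of the *Sst*-led cluster (82, 63, 27, and 23 cells), in which *Csf1* was at 0.520, 0.406, 6.62, and 12.1. By single clusters *Csf1* was higher in 15 of 19. The ratio of the means was 1.31 to 7.57 over the classes, and in NP1-, NF1-, NF2-, and PEP5-like neurons the *Sprr1a*- values after CCI were below those of the *Sprr1a*+ cells of the same class.

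*Bdnf*, which did not separate the groups over all neurons, was higher in both CCI libraries in *Sprr1a*- neurons of 8 of 10 classes. In PEP1-like *Sprr1a*- neurons it was at 155, 165, 291, and 353 CPM, in PEP2-like at 73.3, 88.9, 174, and 269, and in PEP3/4-like at 325, 335, 379, and 465. All 3 peptidergic classes were higher after CCI in both sexes, with the highest value each time in Female-CCI. In NP3-like neurons *Bdnf* was at 46.6, 53.4, 114, and 193, in NP2-like at 93.6, 87.4, 140, and 167, and in PEP5-like at 35.9, 42.7, 89.7, and 106. In NF2-like neurons it was at 96.8, 124, 175, and 173. It overlapped in NP1-like (122, 138, 132, and 140) and NF1-like *Sprr1a*- neurons (49.8, 61.2, 52.8, and 76.8). By single clusters it was higher in 15 of 21 and overlapped in 6.

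*Ccl2* was lower in both CCI libraries in *Sprr1a*- neurons of the 3 peptidergic classes with the highest levels: 25.8, 19.2, 13.7, and 13.3 in PEP1-like, 42.8, 24.6, 21.7, and 20.6 in PEP2-like, and 69.7, 73.6, 44.7, and 55.6 in PEP3/4-like neurons. It was higher in NF1-like (2.64, 3.49, 3.91, and 8.53) and NF2-like neurons (4.23, 4.04, 8.17, and 6.47) and overlapped in 4 of the 9 classes with at least 20 UMIs. By single clusters *Ccl2* was lower in 4 of 14, higher in 2, and overlapped in 8. *Tgfb1* was higher in 6 of 10 classes and overlapped in 4. By single clusters *Tgfb1* was higher in 10 of 18, lower in 1, and overlapped in 7. *Fgf3* and *Inhbb* reached 20 UMIs in 3 and 5 classes and are not compared. *Sprr1a* itself was at 0.470, 1.24, 23.1, and 26.97 CPM in *Sprr1a*- neurons, so it moved with the surgery below the limit too, and the part of free RNA or of cells near the limit in these results was not tested. In sham DRGs *Inhbb* was at a mean of 28.1 CPM in CCI-ind-like neurons, and a *Pvalb*-led NF1-like cluster had 25.5, 12.5, 20.1, and 21.3 in its *Sprr1a*- neurons, where the groups overlapped. For genes with at least 20 UMIs, 18.1% to 31.9% were higher and 19.7% to 29.3% lower in both CCI libraries, depending on the class. Nothing is read from the counts of the 9 genes against these shares, since the genes were chosen with results of *Sprr1a*- neurons known.

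**Figure D4:**
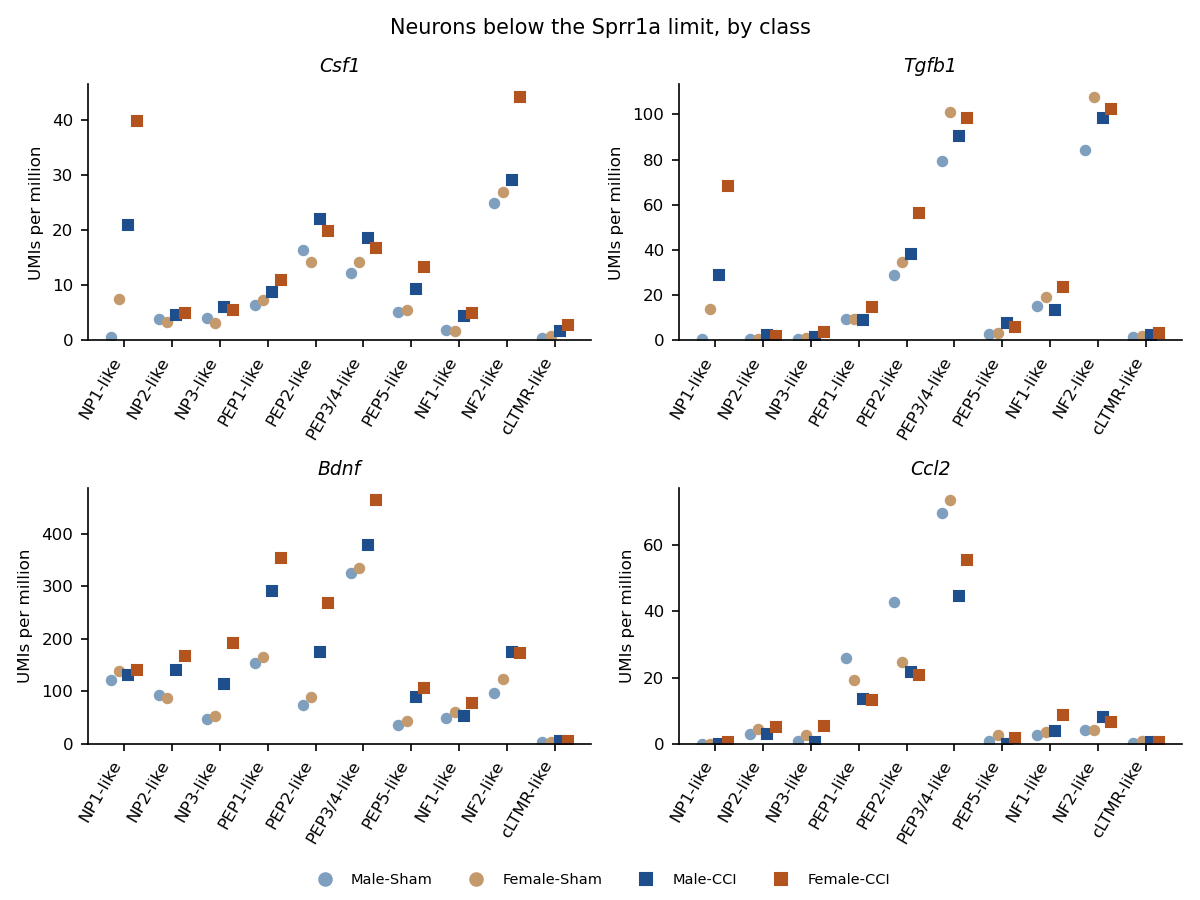
Level of *Csf1*, *Tgfb1*, *Bdnf*, and *Ccl2* in *Sprr1a*- neurons of 10 classes, in CPM; each point is 1 library, colored by surgery. The CCI points of *Csf1* lie above the sham points in 10 of 10 classes and those of *Bdnf* in 8 of 10, while those of *Ccl2* lie below in PEP1-, PEP2-, and PEP3/4-like neurons.

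The remaining 3 genes were counted in few cells. *Il24* had UMIs in 25 and 24 neurons of Male-CCI and Female-CCI, of which 24 and 20 were *Sprr1a*+, and *Il24*+ cells of Male-CCI were deep (median 77404 UMIs; 43994.5 in Female-CCI). It was highest in NF2-like neurons, in the *S100a16*-led cluster, with 30 UMIs in 4 of 90 cells and 34 UMIs in 8 of 124 cells (3.67 and 4.36 CPM). CCI-ind-like neurons held 15 and 14 of the *Il24*+ cells.

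*Reg1* was counted almost only in an NF1-like cluster led by *Ntng1*, where 18 of 89 cells of Male-CCI and 14 of 61 of Female-CCI held 142 of its 144 and 61 of its 64 UMIs (18.6 and 16.9 CPM). Of the 20 and 17 neurons with a *Reg1* UMI, 19 and 17 were *Sprr1a*+. In the same cluster *Reg3b* had 804 UMIs in 12 cells of Male-CCI and 107 UMIs in 7 cells of Female-CCI. *Reg1* and *Reg3b* were detected together in 9 and 6 neurons, where independent detection over all neurons would give 0.298 and 0.182. Most UMIs of both genes were in this cluster, so that expectation cannot tell a shared cell from a shared cluster, and nothing is read from it. *Il24* and *Reg1* were together in 0 and 1 neurons. In sham DRGs *Reg3b* had another source, since 19 of 23 and 24 of 29 neurons with a UMI were cLTMR-like.

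Within the *Ntng1*-led cluster, the 18 and 14 cells with a *Reg1* UMI were set beside its 71 and 47 other cells. The cluster held 36 and 34 *Sprr1a*- cells in Male-CCI and Female-CCI, almost all of them among the other cells. *Pvalb*, a calcium-binding protein of proprioceptors, was at 93.3 against 165 CPM in Male-CCI and at 91.0 against 192 in Female-CCI. *Ntng1*, the leading gene of the cluster, was at 20.7 against 169 and 29.9 against 165. *Sprr1a* was at 3225 against 1684 and 2671 against 1195, and *Atf3* at 672 against 416 and 649 against 292. *Reg1*+ cells were thus lower in *Pvalb* and *Ntng1* and higher in both injury genes in both CCI libraries. Since the other cells include the *Sprr1a*- cells, *Reg1* and *Sprr1a* status cannot be told apart in these differences. The *Reg1*+ cells were chosen by their own counts, so the differences were not tested.

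Satellite glia-like cells, numbering 186, 145, 118, and 108, also had UMIs of *Csf1*, *Ccl2*, and *Tgfb1*. *Csf1* was at 15.2, 13.1, 30.1, and 51.0 CPM in them (17, 9, 21, and 28 UMIs), and *Ccl2* at 7.16, 5.81, 10.0, and 36.4 (8, 4, 7, and 20 UMIs). Both were higher in the CCI libraries on few counts. In the same cells *Sprr1a* was at 2.69, 4.36, 57.4, and 98.3 CPM and *Gal* at 10.7, 5.81, 88.9, and 202, so neuronal transcripts moved with *Csf1* there, and their part in it was not tested. *Fgf3*, which CCI neurons held at 53.1 and 55.4 CPM, had 1 UMI in the satellite glia-like cells of each CCI library (1.43 and 1.82 CPM). *Tgfb1* had 16, 10, 9, and 12 UMIs in these cells (14.3, 14.5, 12.9, and 21.8 CPM) and overlapped between surgeries.

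The genes whose levels were most like each of the 6 abundant genes were found over 58 sums of at least 20 cells, by class, *Sprr1a* status, and library, among 10121 genes. These sums share libraries, depth, and classes, so Pearson's r of log2 levels is given as a description. *Fgf3* was most like *Cckbr* (0.980), *Gpr151* (0.965), and *Tgif1* (0.962), and *Inhbb* most like *Sez6l* (0.956), *Ppp4r1* (0.927), and *Tubb6* (0.920). *Csf1* was most like *Arhgef15* (0.928), *Rtn4* (0.920), and *Pcnx* (0.918), and *Tgfb1* most like *Vash2* (0.930), *Ets2* (0.882), and *Chst2* (0.879). The genes most like *Bdnf* were *Gpr45* (0.856), *Ncoa1* (0.840), and *Ccdc34* (0.837), and those most like *Ccl2* were *Ccl21a* (0.807), *Tgfbr1* (0.790), and *Slk* (0.781). With *Sprr1a* itself r was 0.908 for *Fgf3*, 0.865 for *Inhbb*, 0.814 for *Csf1*, 0.631 for *Tgfb1*, -0.09 for *Bdnf*, and -0.10 for *Ccl2*.

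The receptors for these 9 signals, in neurons, changed in a few cases. Of 24 receptor genes, 19 had enough UMIs for the test, and 3 rose and 1 fell after CCI (edgeR, adjusted p below 0.05 and a log2 change above 0.5). Their median log2 change was -0.13 against -0.006 over all 17233 genes tested, of which 27.8% were called in either direction. *Acvr1c*, the activin receptor ALK7, was at 0.284, 0.522, 6.05, and 6.04 CPM (log2 change 3.94, SE 0.24, edgeR adjusted p = 8.44e-05), and *Sprr1a*+ neurons held 94.0% and 91.4% of its UMIs in the CCI libraries. *Csf1r*, the receptor for CSF1, was at 0.327, 0.253, 1.94, and 1.32 (2.55, SE 0.25, edgeR adjusted p = 0.000256), with 90.5% and 90.0% from *Sprr1a*+ neurons. Both were low in absolute terms and separated the groups in both sexes.

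*Tgfbr2*, the type II receptor of TGF beta, rose from 0.678 and 0.760 to 1.53 and 1.39 CPM (1.08, SE 0.15, edgeR adjusted p = 0.00113). *Ntrk2*, which encodes the BDNF receptor TrkB, fell from 60.5 and 52.6 to 30.8 and 25.1 CPM (log2 change -0.96, SE 0.12, edgeR adjusted p = 0.00221). In satellite glia-like cells *Ntrk2* was at 935, 859, 761, and 739, and the satellite glial markers in the neuron sums were also lower after CCI, whose part in the fall of *Ntrk2* was not tested. *Fgfr1* (39.6, 39.7, 39.7, and 42.6) and *Acvr2a* (12.5, 12.6, 10.96, and 11.1), receptors for FGFs and activins, did not pass, with edgeR adjusted p = 0.0809 and 0.0942. *Extl3*, a receptor for Reg proteins, was at 55.3, 52.1, 42.7, and 44.0 and stayed under the limit of size (log2 change -0.25, edgeR adjusted p = 0.00232). *Ccr2*, the CCL2 receptor, had 10, 9, 6, and 1 UMIs, and *Il20rb*, a subunit of the IL-24 receptor, 7, 7, 3, and 6, too few to test.

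In *Sprr1a*- neurons, 1 of 18 receptors tested was called, against 4.48% of 16407 genes in either direction. *Acvr1c* was at 0.169, 0.158, 0.790, and 1.05 CPM (log2 change 2.46, SE 0.25, edgeR adjusted p = 0.0042). Its level there was far below that over all neurons after CCI. With any *Sprr1a* UMI taken as *Sprr1a*+, its edgeR adjusted p was 0.0843. *Ntrk2* was called in these neurons only without Male-CCI (log2 change -0.60, edgeR adjusted p = 0.0197).

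Of 59 other ligands of the same families, 39 were tested, 18 rose, and 5 fell, with a median log2 change of 0.75. Over all 17233 genes tested, 15.2% rose and 12.7% fell. The lists of receptors, ligands, and partners were chosen with earlier results of these data known, so nothing is read from these counts. *Ccl8*, a monocyte-attracting chemokine like *Ccl2*, was at 0.0924, 0.179, 2.02, and 1.24 (3.61, SE 0.38, edgeR adjusted p = 0.00052). *Ccl8* thus moved opposite to *Ccl2*, at a lower level. *Fgf15* had 4, 3, 35, and 33 UMIs (log2 change 3.41, SE 0.38, edgeR adjusted p = 0.000454), and *Il10*, a cytokine of the same family as *Il24*, had 4, 0, 23, and 10 (3.14, SE 0.91, edgeR adjusted p = 0.026). *Ccl5* rose by 3.59 on the log2 scale (SE 0.75, edgeR adjusted p = 0.00835), but 1 cell of Male-CCI held 45 of its 58 UMIs there. In satellite glia-like cells *Ccl5* had 0, 1, 102, and 76 UMIs. Its level there was 146 and 138 CPM in the CCI libraries, against 0.356 and 0.119 in neurons, and the part of those cells in the neuron counts was not tested. Without Female-Sham the edgeR adjusted p was 0.0524 for *Ccl5* and 0.0805 for *Il10*. *Il34*, the other ligand of CSF1R, was chosen after its values were seen: it was at 3.19, 3.09, 11.1, and 10.3 CPM (1.82, SE 0.07, edgeR adjusted p = 9.97e-06).

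Of 28 genes for proteins that process, carry, or block these signals, 27 were tested, 7 rose, and 6 fell, with a median log2 change of -0.22. The shares over all genes tested were 15.2% higher and 12.7% lower. The *Fst* gene, whose product follistatin binds and blocks activins, rose from 4.15 and 3.49 to 33.2 and 21.5 CPM (log2 change 2.90, SE 0.26, edgeR adjusted p = 0.00154). *Fst* did not pass with a sham library left out (edgeR adjusted p = 0.0753 without Male-Sham and 0.0522 without Female-Sham). *Ltbp1* and *Ltbp4*, which encode carriers of latent TGF beta, rose from 1.45 and 2.15 to 7.18 and 8.25 (2.15, SE 0.19, edgeR adjusted p = 0.000372) and from 0.468 and 0.533 to 2.45 and 2.24 (2.28, SE 0.15, edgeR adjusted p = 4.66e-05). *Pcsk5*, a proprotein convertase, was at 1.07, 1.07, 7.04, and 6.74 CPM (2.74, SE 0.09, edgeR adjusted p = 5.67e-06). *Plat*, the tissue plasminogen activator, was at 2.51, 2.67, 6.18, and 5.85 (1.27, SE 0.09, edgeR adjusted p = 6e-05). The convertase *Pcsk5* thus separated the groups with almost no spread between the sexes.

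**Figure D5:**
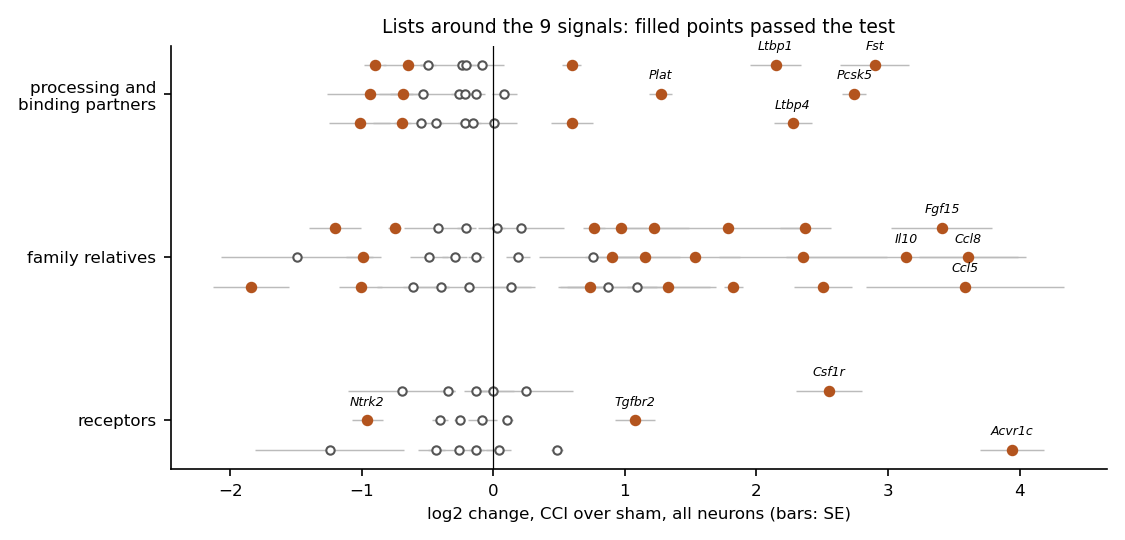
Log2 change, CCI against sham in all neurons, of the tested genes of the receptor, relative, and partner lists, less 1 relative that is not drawn, with bars of 1 SE; filled points passed the test. Over the whole lists, 3 receptors, 18 relatives, and 7 partners rose, with *Acvr1c* (3.94), *Ccl8* (3.61), and *Fst* (2.90) among them, and *Ntrk2* (-0.96) fell. Over all genes tested, 15.2% rose and 12.7% fell.

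Between males and females, with surgery as a covariate, edgeR called 0 of the 9 genes, and 36 of 17233 genes (0.209%). At an unadjusted p under 0.05 edgeR had 6 of the 9 and 1867 of the 17233 genes, and 0 of the 9 without surgery as a covariate. DESeq2 called 0 of the 9 and had 1 at an unadjusted p under 0.05. The lowest edgeR adjusted p were 0.244 for *Bdnf* (log2 male minus female -0.24, SE 0.06; lower in males of both surgeries) and 0.253 for *Reg1* (1.15, SE 0.28; no UMI in sham). Over the alternative fits the lowest edgeR or DESeq2 adjusted p of *Bdnf* was 0.0218, but its change stayed under the limit of size and it was not called. *Reg1* was called without the filter on low counts (edgeR adjusted p = 0.0399). In Male-CCI, 57 of its 144 UMIs (39.6%) were in 1 neuron, without which its level was 0.535 instead of 0.885 CPM. In Female-CCI, 13 of its 64 UMIs (20.3%) were in 1 neuron, without which its level was 0.319 instead of 0.40.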

How the data were processed

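The authors deposited 10x Genomics count matrices (UMI counts per gene and cell, not normalized), 1 per library; the labels name Cell Ranger 2.1.1, the matrix headers 3.0.2, and the build is mm10. The GFP+ sort, Percoll step, and 3′ chemistry can change which cells and transcripts are seen. Cells with under 1500 genes or over 10% mitochondrial UMIs and doublets (Scrublet scores in scanpy 1.11.5, expected rate 0.1, as many as the study removed; the automatic call marked 0 to 121 per library) were left out. Cells were integrated and clustered with Seurat 5.3.0 (3000 variable genes less the 9, 20 components, resolution 0.8) and named by at least 3 markers in at least 10% of cells and 2-fold above other cells. UMI sums per library were tested with edgeR 4.0.16 (quasi-likelihood, robust; R 4.3.3) after its filter on low counts, with Benjamini-Hochberg adjustment over all genes; a call needed an adjusted p below 0.05 and a log2 change beyond 0.5. DESeq2 1.42.0 was an alternative. Replicates are pools of 5 mice of each sex, so p-values measure only the spread between these pools. Genes and lists were chosen with earlier results of these data known; named genes are the 9, the 5 largest calls of each list, 8 receptors, and the 3 most like genes; 1 of the relatives is not reported here. In a test on simulated data, changes were planted in 200 genes above a limit on expected UMIs, so genes of low counts were not covered. For all neurons (17233 genes), 96% of 2-fold and 100% of 4-fold changes were recovered, and 20 unchanged genes were called. For *Sprr1a*- neurons (16407 genes), 87% and 99% were recovered, and 11 unchanged genes were called.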

Additional observations from a re-analysis of the deposited data

How the results depend on the processing

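Only 2 pools per surgery were available, and counting error is large for *Il24*, *Reg1*, and *Reg3b*. Of the directions of the 9 genes between surgeries, 1 reversed: *Bdnf* (log2 change 0.13) was at -0.066 without Female-CCI and 0.29 without Male-CCI. Leaving out each library in turn gave 4 to 5 receptors called, 19 to 23 relatives, 9 to 11 partners, and, in *Sprr1a*- neurons, 1 to 2 receptors. With neurons thinned to 10000 UMIs, 13 relatives were called against 23, in a test of fewer genes. In *Sprr1a*- neurons with any *Sprr1a* UMI taken as *Sprr1a*+, 0 receptors were called against 1 and *Csf1r* was at -0.44; the cause was not tested. *Acvr2a* in *Sprr1a*- neurons, near 0, reversed to -0.0052 (*Sprr1a* value above 2), -0.0071 (doublets kept), -0.016 (no filter), -0.034 (without Male-CCI), and -0.018 (without Male-Sham), and was at 0.033 without Female-CCI. Without the filter on low counts, 1 of the 9 genes differed between the sexes against 0. In the comparison of the sexes, leaving out a library leaves no residual degrees of freedom and was not run. Sex numbers the replicates but pairs no animals; deviations of the sexes correlated across surgeries (0.562 over 16689 genes), and with sex as replicate block 4 receptors, 24 relatives, and 13 partners were called, 1 receptor in *Sprr1a*- neurons, while without surgery as a covariate 0 of the 9 genes were called between the sexes. Without the clusters that carry markers of another class, 7 of the 9 genes were again higher in CCI neurons, an alternative chosen after seeing the data.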
